A study of Mus musculus with 4 samples.

Results

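The cells described are mature CCR7+ dendritic cells (DCs) whose transcripts of Bcl2l14, Mab21l3, Cpne8, Il12b and P3h2 together outnumbered those of St18, Dkk2, Col27a1, Ccl17 and Ccl22, and they are called Il12b type cells here. They were 396 of 10297 cells that passed the quality filter (3.85%) and 26.3% of the 1505 cells that passed the CCR7 gate. The gate asked for at least 500 CPM of Ccr7 and under 500 CPM of Prdm16 (CPM, the usual scale of UMIs divided by the total of the cell; a UMI is a counted transcript), and at least 4 of the 7 maturation genes Fscn1, Il4i1, Nudt17, Cacnb3, Apol7c, Zmynd15 and Socs2. It also allowed at most 1 UMI of Cd3e plus Cd3d. Among gated cells, 1060 had the larger sum for the second gene set (St18 type cells) and 49 had equal sums.

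The cells came from mesenteric lymph nodes of untreated mice aged 15 days of the genotype Gm38411-iCre-hCD2 R26 tdTomato, profiled by 10x 3' single-cell RNA sequencing. A cassette at Gm38411 carries the iCre recombinase and human CD2 (hCD2), a surface reporter, and cells that have recombined the R26 allele carry tdTomato. The sort took tdTomato+ cells with CD11c and MHC-II and without CD3 or B220, and divided them into an hCD2+ and an hCD2- fraction, so that both fractions carry the same alleles and there is no group without the cassette. The 12 mice were each marked with their own hashtag, and each fraction was 1 library, so that fraction and library cannot be told apart.

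DCs that mature switch on CCR7, the receptor for the lymph node chemokines CCL19 and CCL21, and reach the node from the tissue they drained. Conventional DCs form the cDC1 lineage, which depends on IRF8 and BATF3 and specialises in presenting cell-bound antigen on MHC class I, and the cDC2 lineage, which depends on IRF4 and ZEB2. Maturation silences many of the surface markers by which the lineages are told apart at rest. Il12b encodes p40, the subunit shared by IL-12, with p35 from Il12a, and IL-23, with p19 from Il23a.

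Each fraction held 198 Il12b type cells. Every mouse gave at least 8 of them in each fraction, with a median of 14.5 per mouse in both, and at most 31 in hCD2+ and 40 in hCD2-. Their median depth was 34319.5 UMIs and 4947 genes in the hCD2+ fraction and 31444.5 UMIs and 4739 genes in the hCD2- fraction. The libraries held 178129025 UMIs in 8801 called cells (hCD2+) and 150904166 UMIs in 5603 called cells (hCD2-). Of 11 cell barcodes that occurred in both libraries none had the same hashtag in both, and none belonged to an Il12b type cell.

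Levels below are CPM of the UMIs summed over the Il12b type cells of a mouse. The values that chose the cells come first, and they are a description with no test. Il12b ran from 124 to 1601 CPM over the 12 mice, with a median of 1110.4, in the hCD2+ fraction, and from 126 to 1921 CPM, with a median of 789, in the hCD2- fraction. It was the most variable of the chosen genes between mice, and the fractions covered nearly the same range. Bcl2l14, a member of the BCL2 family, averaged 662 ± 271 CPM in hCD2+ and 640.5 ± 240.2 CPM in hCD2- cells (SD, n = 12 mice each). P3h2, a collagen prolyl 3-hydroxylase, averaged 203 ± 61.6 CPM in hCD2+ and 184 ± 87.4 CPM in hCD2- cells. Mab21l3 averaged 292 ± 109 CPM in hCD2+ and 254 ± 101 CPM in hCD2- cells. Cpne8, a copine that binds membranes when calcium rises, averaged 176 ± 72.4 CPM in hCD2+ and 90.4 ± 53.6 CPM in hCD2- cells.

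The label names Il12b and Cpne8, yet neither was found in every cell. Il12b had at least 1 UMI in 152 of 198 hCD2+ cells (76.8%) and 124 of 198 hCD2- cells (62.6%). After each cell was sampled down to 5000 UMIs, the shares were 56.1% in hCD2+ and 49.0% in hCD2- Il12b type cells. In resident cDC1 sampled to the same depth they were 2.02% in hCD2+ and 3.96% in hCD2- cells, with median depths before sampling of 39395 and 39826 UMIs. Il12b was also present in St18 type cells. In the hCD2+ fraction 33.4% of them had a UMI, and 18.3% after sampling to 5000 UMIs. Over both fractions Il12b averaged 138 CPM in St18 type and 891 CPM in Il12b type cells, which the rule divided by this gene among others. Il12b was uneven among Il12b type cells: the median hCD2+ cell held 194 CPM and the highest 11684 CPM, and the median hCD2- cell held 105 CPM and the highest 7934 CPM. The median cell held 73.6 CPM of Cpne8 in hCD2+ and 0 CPM in hCD2-. The type is thus defined by the sum of its 5 genes rather than by any of them in each cell.

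The start of Il12b and of Cpne8 is shown because these genes name the type. The sequences are RefSeq's for GRCm38.p6, 250 bases before to 50 bases after the gene's start, written along the gene's own strand. Capitals in Il12b, at chr11:44399813-44400112 on the plus strand, mark a match to the Rel-binding letters GGGAATTT on the opposite strand, a match to the C/EBP letters TTGCAAT and a match to the TATA letters TATANAA, in that order. Capitals in Cpne8, at chr15:90679339-90679638 on the minus strand, mark 2 matches to the NF-kB letters GGGA and CC with any 4 bases between them, of which the left lies on the opposite strand.
Il12b: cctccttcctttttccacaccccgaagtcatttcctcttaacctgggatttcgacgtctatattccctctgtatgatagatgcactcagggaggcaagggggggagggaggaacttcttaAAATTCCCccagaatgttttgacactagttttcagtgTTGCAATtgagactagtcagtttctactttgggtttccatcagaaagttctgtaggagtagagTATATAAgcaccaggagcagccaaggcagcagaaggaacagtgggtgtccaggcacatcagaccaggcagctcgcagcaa
Cpne8: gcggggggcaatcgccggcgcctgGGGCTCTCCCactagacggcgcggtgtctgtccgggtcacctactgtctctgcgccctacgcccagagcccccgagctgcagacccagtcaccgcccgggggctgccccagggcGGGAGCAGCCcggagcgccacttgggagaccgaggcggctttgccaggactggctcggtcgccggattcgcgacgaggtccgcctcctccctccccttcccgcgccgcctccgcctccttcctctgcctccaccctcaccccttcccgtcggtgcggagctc
The 3 Il12b matches begin 130, 93 and 30 bases before the start, and the 2 Cpne8 matches 226 and 112 bases before it. Both strands of 32851 RefSeq promoters of this length were searched. The Rel-binding letters occurred in 0.947% of them, the C/EBP letters in 2.22%, the TATA letters in 11.3% and the NF-kB letters in 20.7%. Neither window held the IRF letters GAAA and GAAA with any 2 bases between them (3.44% of promoters) or the AP-1 letters TGANTCA (7.81%). These are matches of letters in a window, not measured binding.

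Against St18 type cells, Il12b type cells had higher levels of several cDC1 lineage genes. The description uses 24 pairs, each 1 mouse in 1 fraction with both types, and its counts for gene lists leave out the genes of the rule. Because the rule divided the types, no test is given. Of 7633 genes at 10 CPM or more, those of the rule included, 3.93% were at least 2-fold higher and 5.03% at least 2-fold lower in Il12b type cells. Of 10 cDC1 lineage genes at that level 5 were at least 2-fold higher and 1 lower, with a median log2 ratio of 1.02 against -0.03 for all genes. Irf8, the transcription factor of the cDC1 lineage, averaged 509 ± 185 CPM in Il12b type and 156 ± 88.5 CPM in St18 type cells, and was higher in 24 of 24 pairs. Cadm1, an adhesion molecule of cDC1, averaged 207 ± 72.7 CPM in Il12b type and 69.4 ± 57.2 CPM in St18 type cells, higher in 22 of 24 pairs.

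Low levels of cDC1 surface receptors were present. Clec9a, the cDC1 receptor for dead cells, averaged 25.2 CPM in Il12b type and 0.897 CPM in St18 type cells, and Xcr1, the cDC1 chemokine receptor, 10.2 CPM in Il12b type and 0.473 CPM in St18 type cells. Clec9a was seen in 27.8% of hCD2+ and 28.3% of hCD2- Il12b type cells, and in 1.86% of hCD2+ and 2.20% of hCD2- St18 type cells, whose median depths were 32178 and 29819 UMIs. Batf3 did not follow: it averaged 183 CPM in Il12b type and 213 CPM in St18 type cells, and Wdfy4, which cDC1 need for cross-presentation, was lower at 37.7 CPM against 77.5 CPM in St18 type cells.

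Genes of the cDC2 lineage were lower. Of 9 at 10 CPM or more 3 were at least 2-fold lower and 1 higher. Irf4 averaged 43.3 CPM in Il12b type and 129 CPM in St18 type cells and was lower in 24 of 24 pairs. Sirpa, an inhibitory receptor of cDC2, averaged 43.1 CPM in Il12b type and 141 CPM in St18 type cells, lower in 24 of 24 pairs, and Zeb2 averaged 163 ± 142 CPM against 355 ± 94.3 CPM in St18 type cells, lower in 22 of 24. Clec12a was the gene of this list that was higher, with 28.1 CPM in Il12b type and 3.11 CPM in St18 type cells.

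**Figure D1:**
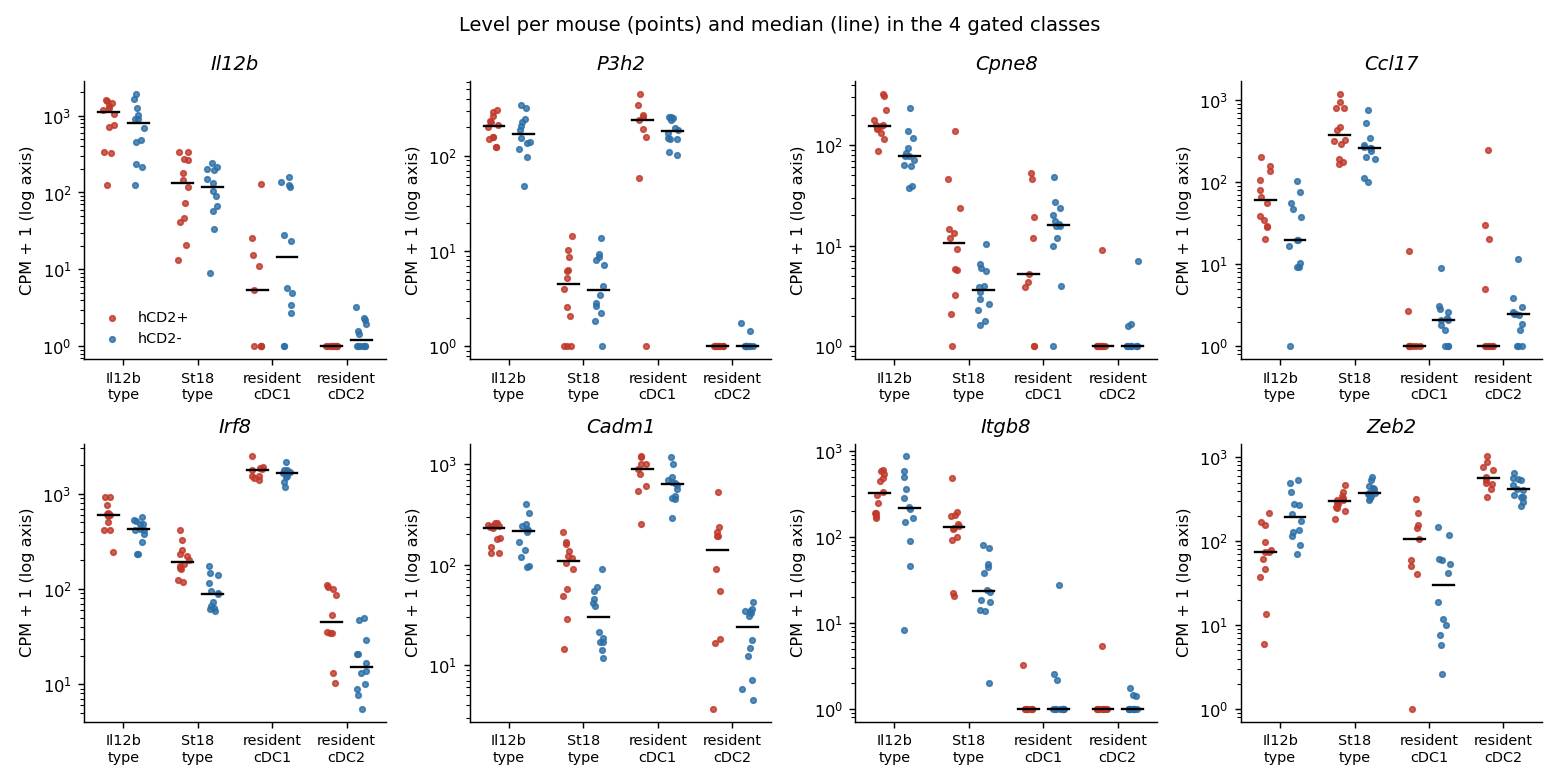
Level per mouse (points; CPM + 1 on a log axis) and median over mice (line) of 8 genes in Il12b type, St18 type, resident cDC1 and resident cDC2 cells, hCD2+ in red and hCD2- in blue. P3h2 is at similar levels in Il12b type cells and resident cDC1, Itgb8 is near 0 in both resident classes, and Zeb2 is lower in hCD2+ than hCD2- Il12b type cells.

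Genes outside the rule at 50 CPM or more were ranked only if they had the same direction in 24 of 24 pairs. Among these, the largest ratios were those of Galc, a lysosomal galactosylceramidase, Arhgap42, Zdhhc14, Slc41a2 and Laptm4b. Galc averaged 54.0 CPM in Il12b type and 3.12 CPM in St18 type cells, a ratio of 17.3. Zdhhc14, a palmitoyltransferase, averaged 989 ± 314 CPM in Il12b type and 129 ± 66.5 CPM in St18 type cells. Laptm4b, a lysosomal membrane protein, averaged 605 ± 186 CPM in Il12b type and 108 ± 77.1 CPM in St18 type cells. On the other side, Car2, a carbonic anhydrase, averaged 30.9 CPM in Il12b type and 233 CPM in St18 type cells, and the neutrophil chemokine Cxcl1 averaged 43.1 CPM against 204 CPM in St18 type cells. Each of these genes had its direction in 24 of 24 pairs.

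Antigen presentation differed by class of MHC molecule. Of 14 MHC class II genes at 10 CPM or more 10 were at least 2-fold lower in Il12b type than in St18 type cells, with a median log2 ratio of -1.16. H2-Ab1 averaged 478 ± 375 CPM in Il12b type and 1486 ± 282 CPM in St18 type cells, and Ciita, the master activator of the class II genes, 36.6 CPM in Il12b type and 124 CPM in St18 type cells. The invariant chain Cd74 averaged 3259 CPM in Il12b type and 6992 CPM in St18 type cells, and was lower in 24 of 24 pairs. None of 15 MHC class I and cross-presentation genes was past 2-fold either way, with a median log2 ratio of 0.17, although H2-K1 was higher in 24 of 24 pairs, at 2644 CPM against 1764 CPM in St18 type cells.

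Among secreted factors and receptors, Ccl5 averaged 5053 ± 1283 CPM in Il12b type and 2473 ± 644 CPM in St18 type cells, and Il15ra, which presents IL-15 to T and NK cells, 369 ± 102 CPM in Il12b type and 172 ± 41.0 CPM in St18 type cells. Both were higher in 24 of 24 pairs, and Il15 itself, at 369 CPM against 225 CPM in St18 type cells, in 21 of 24. Of 9 other cytokine genes 1 was at least 2-fold higher and 3 lower. Il27 averaged 16.02 CPM in Il12b type and 4.50 CPM in St18 type cells, and Il1b 96.5 CPM in Il12b type and 355 CPM in St18 type cells.
The partners of p40 were scarce. Il12a was seen in 1 of 198 hCD2+ and 1 of 198 hCD2- Il12b type cells, and Il23a averaged 3.69 CPM in Il12b type and 12.5 CPM in St18 type cells. Ebi3, the partner of Il27 in IL-27, averaged 123 CPM in Il12b type and 244 CPM in St18 type cells.

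Of 12 genes linked to regulatory T cell induction and tolerance, 1 was at least 2-fold higher and 2 lower. The higher gene was Itgb8, a subunit of the integrin that activates latent TGF-beta: it averaged 320.0 ± 209.5 CPM in Il12b type and 89.9 ± 102 CPM in St18 type cells, and was higher in 21 of 24 pairs. Aldh1a2, which makes retinoic acid, averaged 225 CPM in Il12b type and 168 CPM in St18 type cells. Kynu, a kynureninase, averaged 159 CPM in Il12b type and 389 CPM in St18 type cells. The costimulatory receptor Cd40 averaged 301 ± 77.6 CPM in Il12b type and 649 ± 157 CPM in St18 type cells. None of 18 NF-kB pathway genes and 3 of 20 maturation genes outside the rule (Il15ra, Ccl5 and Cd40) were past 2-fold, so that the types had like levels of most maturation genes. Of 6 proliferation genes 4 were at least 2-fold lower. Mki67 averaged 43.5 CPM in Il12b type and 101 CPM in St18 type cells, with at least 1 UMI in 29.3% of Il12b type cells in either fraction, against 48.8% of hCD2+ and 49.2% of hCD2- St18 type cells.

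The 2 resident classes were gated with the same quality filter, Ccr7 and Prdm16 under 500 CPM: cDC1 with at least 3 UMIs of Xcr1 plus Clec9a (377 cells) and cDC2 with none of these, no Siglech, at least 1 UMI of Flt3 plus Zbtb46 and at least 3 UMIs of Cd209a, Clec4a4, Clec4a2 and Clec10a (688 cells). Both gates allowed at most 1 UMI of Cd3e plus Cd3d. The genes that distinguished the Il12b type were then read in these cells, which the rule of the type did not divide, leaving out the genes of the rule and of both resident gates. Of 209 genes at least 2-fold higher in Il12b type than St18 type cells, 86 (41.1%) were at least 2-fold higher in resident cDC1 than resident cDC2, and 9 (4.31%) were lower. Of 285 genes at least 2-fold lower in Il12b type cells, 5 (1.75%) were higher in resident cDC1 and 170 (59.6%) were lower. Over all 7123 genes the shares were 3.66% higher and 9.41% lower. In the hCD2+ fraction alone 37.04% of the higher genes were higher in resident cDC1 and 62.2% of the lower genes lower, and in the hCD2- fraction alone these shares were 46.8% and 52.7%. The shares are descriptions, since all classes come from the same libraries.

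Over whole profiles the type was nearest to the St18 type. Pearson's r across genes (log2 CPM, genes not being independent) was 0.949 with St18 type, 0.686 with resident cDC1 and 0.699 with resident cDC2 in the hCD2+ fraction over 9578 genes. In the hCD2- fraction r was 0.960 with St18 type, 0.656 with resident cDC1 and 0.677 with resident cDC2 over 9204 genes.

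Against resident cDC1 (21 pairs), 15.8% of 8760 genes were at least 2-fold higher and 31.1% at least 2-fold lower in Il12b type cells. Of 18 cDC1 lineage genes 16 were lower and 1 was higher, with a median log2 ratio of -5.32; the list holds Xcr1 and Clec9a, which gated the resident cells. Tlr3, a receptor for double-stranded RNA, averaged 0.73 CPM in Il12b type cells and 209 CPM in resident cDC1. Naaa averaged 3.90 CPM in Il12b type cells and 992 CPM in resident cDC1, and Wdfy4 40.2 CPM against 2038 CPM in resident cDC1. The ratio was smaller for Irf8, at 482 CPM in Il12b type cells and 1687 CPM in resident cDC1, and for Cadm1, at 202 CPM against 726 CPM. P3h2 was at like levels: it averaged 187 CPM in Il12b type cells and 199 CPM in resident cDC1, and was higher in 9 of 21 pairs.
Of 20 maturation genes outside the rule 17 were at least 2-fold higher than in resident cDC1 and none lower, and of 18 NF-kB pathway genes 14 were higher. Ccl5 averaged 5064 CPM in Il12b type cells and 23.2 CPM in resident cDC1, Cd63, a tetraspanin of late endosomes, 828 CPM against 6.32 CPM, and Aldh1a2 212 CPM against 3.93 CPM. Tnfrsf4 (OX40) averaged 193 CPM in Il12b type cells and 0.605 CPM in resident cDC1. All 15 proliferation genes were at least 2-fold lower.

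Against resident cDC2 (22 pairs), 12.7% of 9000 genes were at least 2-fold higher and 31.9% at least 2-fold lower. Of 18 cDC2 lineage genes, which include those that gated the resident cells, 13 were lower and 1 was higher, and of 11 cDC1 lineage genes 7 were higher and 3 lower. Irf8 averaged 486 CPM in Il12b type cells and 36.6 CPM in resident cDC2, higher in 22 of 22 pairs. P3h2 averaged 190 CPM in Il12b type cells and 0.056 CPM in resident cDC2, where only 2 of its UMIs were counted. Itgb8 stood apart from both resident classes, with 320.1 CPM in Il12b type cells against 0.276 CPM in resident cDC2, and 321 CPM against 1.49 CPM in resident cDC1.

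Cells lay close to the line between the types on both sides of it. The median Il12b type cell held 52 UMIs of its own 5 genes and 10.5 of the opposing 5 in the hCD2+ fraction, and 44 and 7 UMIs in the hCD2- fraction. Just inside the line, 47 cells (20 hCD2+ and 27 hCD2-) had an excess of 1 to 3 UMIs, and just outside it 93 cells (37 hCD2+ and 56 hCD2-) fell short by 1 to 3 UMIs. Pooled over cells, Irf8 was at 592 CPM in the 246 cells with an excess over 20 UMIs, 454 CPM at 4 to 20 UMIs, 238 CPM at 1 to 3 UMIs, 185 CPM in ties and 119 CPM just outside. Zeb2 ran the other way over the first 3 of these bins, with 133, 161 and 556 CPM, and was at 572 CPM in ties and 465 CPM just outside. Itgb8 was at 342 CPM over 20 UMIs, 386 CPM at 4 to 20 UMIs, 71.9 CPM at 1 to 3 UMIs, 14.4 CPM in ties and 82.2 CPM just outside. Cadm1 did not follow Irf8, with 204 CPM over 20 UMIs, 166 CPM at 4 to 20 UMIs, 211 CPM at 1 to 3 UMIs, 469 CPM in ties and 366 CPM just outside. The cells nearest the line thus had other levels of Irf8, Zeb2 and Itgb8 than the rest of the type, and they were shallower, with a median of 25364 UMIs against 36089 in cells far inside. Around the Ccr7 threshold, 5 hCD2+ and 7 hCD2- Il12b type cells lay between 500 and 750 CPM, and 10 hCD2+ and 9 hCD2- cells between 250 and 500 met all other conditions.

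**Figure D2:**
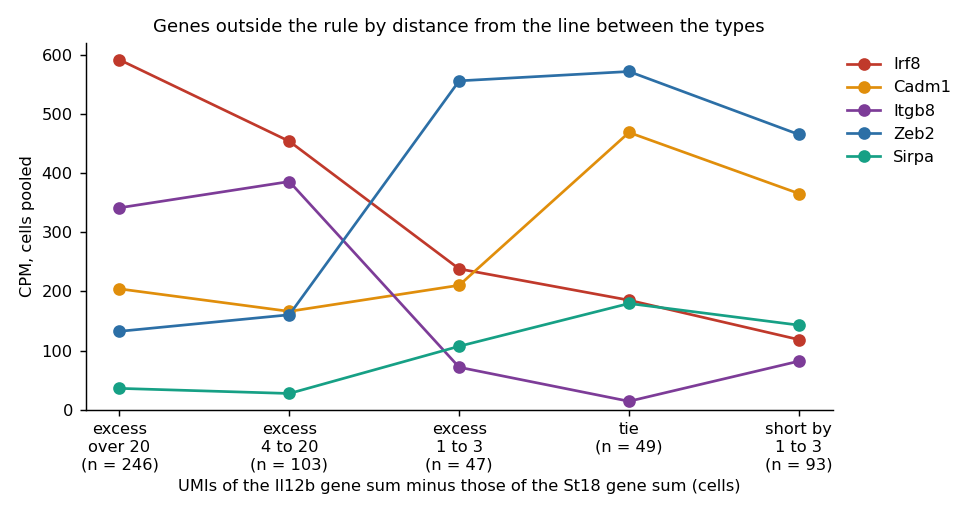
Pooled CPM of 5 genes outside the rule (y axis) in cells grouped by how far the Il12b gene sum exceeds the St18 gene sum, in UMIs (x axis; numbers of cells in parentheses). Irf8 is highest and Zeb2 lowest in the 246 cells farthest inside, and Zeb2 and Irf8 cross between the bins of 4 to 20 and 1 to 3 UMIs.

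Markers of other cell types were read as a check of the gate. All 9 T cell markers were under 10 CPM, with a summed level of 2.55 to 50.9 CPM per mouse in hCD2+ and 3.07 to 28.9 CPM in hCD2- cells. All 7 B cell markers (0 to 37.7 CPM in hCD2+, 0 to 39.7 CPM in hCD2-) and all 5 neutrophil markers were under 10 CPM too. Of 9 monocyte or macrophage markers 1 was over 10 CPM in each fraction (Lyz2 in hCD2+, Adgre1 in hCD2-), and their sum reached 194 CPM in hCD2+ and 133 CPM in hCD2- mice. Of 7 NK cell or ILC1 markers only Klrk1 was over 10 CPM, and the sum reached 107 CPM in hCD2+ and 46.2 CPM in hCD2- mice. Of 8 ILC3 markers only Il23r was over 10 CPM, and their sum had a median of 56.2 CPM and a maximum of 172 CPM in hCD2+ cells and a median of 20.5 CPM and a maximum of 85.9 CPM in hCD2- cells, against 1269.9 CPM in hCD2+ and 130.3 CPM in hCD2- droplets of 10 to 100 UMIs, which hold free RNA. Of 7 plasmacytoid DC markers only 3 were under 10 CPM in hCD2+ cells, against 6 in hCD2- cells. Tcf4 was the highest of them in both fractions, and 1 hCD2+ mouse reached a sum of 897 CPM against a median of 156 CPM.

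The reporters were checked next. Gm38411 averaged 3.05 ± 4.33 CPM in hCD2+ and 1.09 ± 2.27 CPM in hCD2- Il12b type cells, below the 23.7 CPM of hCD2+ and the 1.31 CPM of hCD2- droplets. It had a UMI in 10 of 198 hCD2+ cells (5.05%, 95% Wilson interval 2.77 to 9.05%) and 4 of 198 hCD2- cells (2.02%, 0.788 to 5.08%), intervals that cover counting error only. The hCD2 transcript was seen in 5.05% of hCD2+ and 2.53% of hCD2- cells, so that these counts do not separate the fractions at this depth. iCre was seen in 0 of 198 hCD2+ cells, which allows a share of cells with a UMI of up to 1.52% and does not limit how many cells express it. tdTomato ran from 145 to 244 CPM with a median of 209 in hCD2+ cells, and from 237 to 421 CPM with a median of 311 in hCD2- cells. The ranges barely overlapped and every mouse was lower in hCD2+ (log2 fold change -0.70 ± 0.11 SE, adjusted p = 0.00012, edgeR quasi-likelihood test with Benjamini-Hochberg adjustment). In St18 type cells the log2 fold change was -0.83 ± 0.08, so the difference was present in both types. It was also present in the droplets, which held 158 CPM of tdTomato in hCD2+ and 246 CPM in hCD2- (log2 ratio -0.64). The part of free RNA in the tdTomato difference between cells was not tested.

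Il12b type cells took a larger part of the CCR7-gated cells in the hCD2+ fraction. Their share of gated cells ran from 26.3% to 42.9% with a median of 31.9% in hCD2+, and from 14.02% to 34.5% with a median of 22.1% in hCD2-. The mean was 32.8% ± 5.82 in hCD2+ and 22.1% ± 5.31 in hCD2- (SD, n = 12 mice each), a difference of 10.7 percentage points that showed in 11 of 12 mice (two-sided permutation test, p = 8e-05, adjusted over 2 share tests 0.00016). With the mouse as block it had an adjusted p of 0.00391 (exact sign flips). The median number of St18 type cells per mouse was 27.5 in hCD2+ and 52 in hCD2-, while that of Il12b type cells was 14.5 in both. Of filtered cells with at least 500 CPM of Ccr7, the Prdm16 limit kept 869 of 1414 in hCD2+ and 1458 of 1479 in hCD2-. The part of this step in the share of gated cells was not tested.
As a share of all filtered cells the Il12b type did not differ past the threshold. It averaged 3.40% ± 1.41 in hCD2+ and 4.44% ± 1.298 in hCD2-, lower in 9 of 12 mice (two-sided permutation test, adjusted p = 0.0755). With the mouse as block the adjusted p was 0.0532 (exact sign flips). With cells sampled to 5000 UMIs before gating, the difference was -1.29 percentage points (adjusted p = 0.0229). The sort decides which other cells each fraction holds, and its part in this share was not tested. Across mice no relation past the threshold was found between the share of gated cells in hCD2+ and that in hCD2-: Pearson's r was 0.0125 (permutation p = 0.930, adjusted 0.930) and Spearman's rho 0.189 (permutation p = 0.558, adjusted 0.930, n = 12), and r was 0.156 without the 2 mice farthest from the median.

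**Figure D3:**
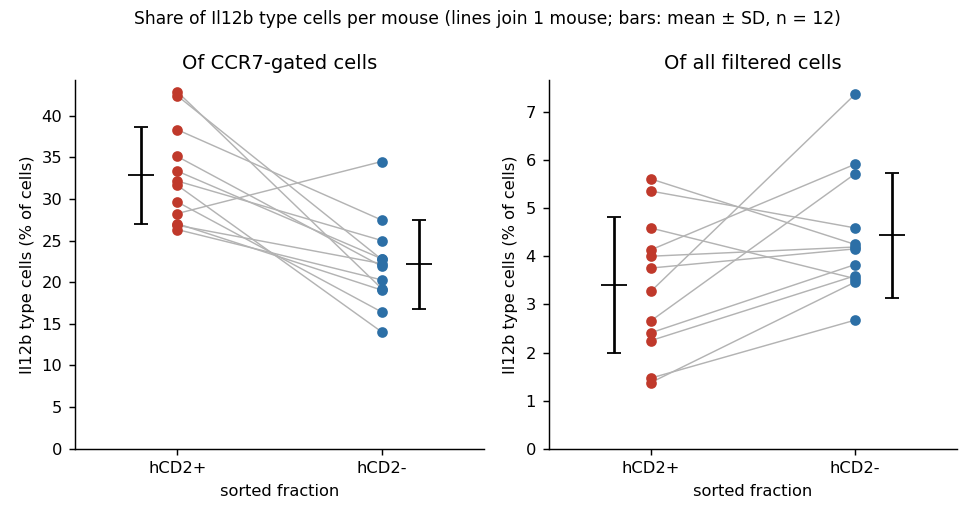
Il12b type cells as a percentage of CCR7-gated cells (left) and of all filtered cells (right) per mouse, hCD2+ in red and hCD2- in blue, with lines joining the same mouse and bars for the mean ± SD (n = 12). The share of gated cells is higher in hCD2+ in 11 of 12 mice, and the share of all filtered cells lower in 9 of 12.

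Within Il12b type cells, gene levels were compared between fractions on counts summed per mouse, a contrast that the rule did not use. edgeR's quasi-likelihood test called 300 of 4964 genes (6.04%) at an adjusted p under 0.05: 156 (3.14%) were higher and 144 (2.9%) lower in hCD2+ cells, and 31 changed at least 2-fold. The 300 include Cpne8, Zmynd15 and Col27a1, which the rule read and which are only described below. With cells sampled to 5000 UMIs, 84 of the 1393 genes that could be tested were called. The groups of mice did not overlap for 12 genes (0.242%). Of the 12, 5 were ribosomal protein genes, all lower in hCD2+, 2 were predicted or pseudogene copies, and the other 5 were Grik3, Zmynd15, Cmss1, Cmtm6 and Sri, of which the last 3 are named here after their values were seen. Of 76 ribosomal protein genes tested 10 were lower and 1 was higher. In free RNA, 68 of the 156 higher genes were also higher in hCD2+ droplets and 82 of the 144 lower genes also lower. Over all 4964 genes tested 2798 (56.4%) were higher in hCD2+ droplets. The part of free RNA in these differences was not tested.

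The genes that chose the cells are described without a test, since the choice bears on their level in both fractions. Il12b had a log2 fold change of 0.21 ± 0.37, Bcl2l14 of 0.03 ± 0.22, P3h2 of 0.09 ± 0.21 and Mab21l3 of 0.17 ± 0.21. Cpne8 had a larger value: it ran from 86.3 to 324 CPM with a median of 155 in hCD2+ cells, and from 36.1 to 233 CPM with a median of 76.5 in hCD2- cells. The ranges overlapped, and each mouse was higher in hCD2+ (log2 fold change 0.93 ± 0.24). Zmynd15, a maturation gene of the gate, ran from 477 to 609 CPM with a median of 539 in hCD2+ cells, and from 318 to 476 CPM with a median of 347 in hCD2- cells. These ranges did not overlap (log2 fold change 0.55 ± 0.08).

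Itgb8 ran from 164 to 601 CPM with a median of 319 in hCD2+ cells, and from 7.22 to 857 CPM with a median of 217 in hCD2- cells. The hCD2- range enclosed the hCD2+ range, and the edgeR test did not call it (log2 fold change 0.23 ± 0.37, adjusted p = 0.776). In St18 type cells Itgb8 was higher in hCD2+ (log2 fold change 2.17 ± 0.40, edgeR adjusted p = 0.000374), but the difference between the types was itself not called (-1.96 ± 0.57, edgeR adjusted p = 0.244). Irf8 ran from 245 to 922 CPM with a median of 604 in hCD2+ cells, and from 231 to 572 CPM with a median of 425 in hCD2- cells. It was higher in 9 of 12 mice and not called (log2 fold change 0.50 ± 0.18, edgeR adjusted p = 0.0854). Cadm1 had a mean of 207 CPM in hCD2+ and 208 CPM in hCD2- cells. In St18 type cells both Irf8 (log2 fold change 1.12 ± 0.20, edgeR adjusted p = 0.000263) and Cadm1 (1.65 ± 0.36, 0.00233) were higher in hCD2+. The difference between the types was not called for Irf8 (-0.63 ± 0.28, edgeR adjusted p = 0.517) or Cadm1 (-1.64 ± 0.42, 0.147). Aldh1a2 had a log2 fold change of 0.44 ± 0.18 and was not called (edgeR adjusted p = 0.130).

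Among called genes, Grik3, a subunit of kainate glutamate receptors, had the clearest separation of the named genes. It ran from 33.2 to 61.1 CPM with a median of 41.1 in hCD2+ cells, and from 4.86 to 17.8 CPM with a median of 10.9 in hCD2- cells. No hCD2- mouse reached the lowest hCD2+ mouse (log2 fold change 1.80 ± 0.18, edgeR adjusted p = 5.21e-08), and in St18 type cells the log2 fold change was 1.85 ± 0.17. Bst2 (tetherin), which holds viruses to the cell surface, ran from 84.3 to 278 CPM with a median of 144 in hCD2+ cells, and from 26.3 to 102 CPM with a median of 71.8 in hCD2- cells. It was higher in 11 of 12 mice (log2 fold change 1.12 ± 0.18, edgeR adjusted p = 0.000264). It was the gene called among 6 of the type I interferon list, while 6.04% of all genes tested were called. Droplets held 214 CPM of Bst2 in hCD2+ and 124 CPM in hCD2-, above its means of 158 and 69.6 CPM in Il12b type cells. Serpinb1a, an inhibitor of neutrophil proteases, had the largest fold change of the named genes, 2.13 ± 0.55 (edgeR adjusted p = 0.0166), but spread from 2.46 to 320 CPM in hCD2+ and from 0 to 65.9 CPM in hCD2- cells, and was higher in 10 of 12 mice. With at least 10 cells per mouse it was not called (edgeR adjusted p = 0.052).
The other named genes that rose were Wdr89, Rnaset2b, Pde4d (a cAMP phosphodiesterase), Nos1ap, Gyg (glycogenin), Rhoc and Ftl1-ps1, with log2 fold changes of 0.99 to 1.80. Pde4d was not called without cells whose sums differed by fewer than 3 UMIs (edgeR adjusted p = 0.0557). Droplets held 213 CPM of Pde4d in hCD2+ and 81.1 CPM in hCD2-, and 57.6 CPM of Serpinb1a in hCD2+ and 8.84 CPM in hCD2-. The part of free RNA in the differences of Bst2, Pde4d and Serpinb1a was not tested. Ftl1-ps1 and Rnaset2b have near-identical relatives, Ftl1 and Rnaset2a, whose reads may be shared with them, and are uncertain.

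The named gene that fell most was Ror1, a receptor of the Wnt family of ligands. It ran from 0 to 35.6 CPM with a median of 12.3 in hCD2+ cells, and from 17.8 to 120 CPM with a median of 46.4 in hCD2- cells. It was lower in 12 of 12 mice (log2 fold change -1.96 ± 0.33, edgeR adjusted p = 0.000305). Zeb2, the cDC2 factor, ran from 4.90 to 217 CPM with a median of 73.3 in hCD2+ cells, and from 70.4 to 532 CPM with a median of 192 in hCD2- cells. The ranges overlapped, and 10 of 12 mice were lower in hCD2+ (log2 fold change -1.48 ± 0.37, edgeR adjusted p = 0.0134). With at least 10 cells per mouse Zeb2 was no longer called (log2 fold change -1.19, edgeR adjusted p = 0.0683). The cells nearest the line between the types, where Zeb2 was highest, were 20 of 198 in hCD2+ and 27 of 198 in hCD2-. Without cells whose sums differed by fewer than 3 UMIs Zeb2 was still called (log2 fold change -1.64, edgeR adjusted p = 0.0238).
Lrmp, Prkcb, Cdh2 (N-cadherin), Tiam1, Otulinl, Rin2 and the cystine transporter Slc7a11 also fell, with log2 fold changes of -1.52 to -1.04. Prkcb was lower in hCD2+ droplets too, at 162 CPM against 376 CPM in hCD2- droplets. Zeb2 (252 against 219 CPM), Cdh2 (140 against 99.1 CPM) and Rin2 (79.3 against 41.2 CPM) were higher in hCD2+ droplets. With the mouse as block, Cdh2 (edgeR adjusted p = 0.0537) and Rin2 (0.107) were not called. Without cells whose sums differed by fewer than 3 UMIs, Prkcb (edgeR adjusted p = 0.128), Rin2 (0.255) and Otulinl (0.06) were not called. Prkcb was also not called with at least 10 cells per mouse (edgeR adjusted p = 0.0594), nor Cdh2 with cells sampled to 5000 UMIs (0.167), nor Rin2 without the low-count filter (0.0578). Col27a1, a gene of the opposing sum in the rule, had a log2 fold change of -1.34, given without a test.

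Maturation genes moved little and in both directions. Of 20 outside the rule Cd63 rose, and Cd86, Cd83 and Traf1 fell. For all 4964 genes tested the shares called were 3.14% higher and 2.9% lower. The counts for this and the following lists stand beside those shares, and no list was tested as a whole. Cd86, a ligand of CD28 on T cells, ran from 324 to 453 CPM with a median of 406 in hCD2+ cells, and from 380 to 903 CPM with a median of 589 in hCD2- cells. The hCD2+ mice kept to the low end of the hCD2- range, and 11 of 12 mice were lower (log2 fold change -0.64 ± 0.11, edgeR adjusted p = 0.000559). Cd83, which keeps MHC class II and CD86 on the surface, averaged 1159 ± 138 CPM in hCD2+ and 1590.4 ± 219.1 CPM in hCD2- cells (log2 fold change -0.49 ± 0.09, edgeR adjusted p = 0.00088). Cd63 was higher, with 1022 ± 123 CPM in hCD2+ and 689 ± 107 CPM in hCD2- cells (log2 fold change 0.54 ± 0.10, edgeR adjusted p = 0.000728). Of 15 NF-kB pathway genes none rose and 3 fell: Traf1 (log2 fold change -0.49, lower in 12 of 12 mice), Birc3 (-0.37) and Tnfaip3 (-0.51), whose product shuts off NF-kB signalling. Birc3 was not called in 4 of 7 alternatives (edgeR adjusted p of 0.0504 to 0.0946), Tnfaip3 in 3 of 7 (0.0589 to 0.132) and Traf1 in 1, with cells sampled to 5000 UMIs (0.0594).
Of 15 MHC class I genes 2 rose, H2-K1 (log2 fold change 0.39 ± 0.08, edgeR adjusted p = 0.00212) and B2m (0.34 ± 0.07, 0.00424), and 1 fell, the class I activator Nlrc5 (-0.42 ± 0.11, 0.0236). Without the low-count filter B2m (edgeR adjusted p = 0.074) and Nlrc5 (0.0679) were not called, nor was Nlrc5 with cells sampled to 5000 UMIs (0.341). None of 12 MHC class II genes passed, with a median log2 fold change of -0.46 against 0.00 for all genes. H2-Ab1 came nearest, at 313 ± 148.5 CPM in hCD2+ and 643 ± 460.3 CPM in hCD2- cells (edgeR adjusted p = 0.0512). Batf3 fell slightly, to 163 CPM in hCD2+ cells against 202 CPM in hCD2- cells (edgeR adjusted p = 0.0333, and 0.0507 to 0.124 in the 4 of 7 alternatives that did not call it). Among 12 apoptosis regulators, a count that includes Bcl2l14 of the rule, Bax rose (log2 fold change 0.48). Bcl2l1, which protects cells, fell (-0.69, edgeR adjusted p = 0.0361). Bax was not called in 2 of the 6 alternatives that tested it (edgeR adjusted p of 0.0632 and 0.0664), and Bcl2l1 in 4 of 7 (0.056 to 0.204). None of 5 cytokine, 8 tolerance, 7 chemokine, 9 sterol, 12 immediate early, 2 pattern recognition or 2 proliferation genes was called. The cytokine count includes Il12b, and the chemokine count includes Ccl17, Ccl22 and Ccr7. The rule read these genes, so the result bears only on the others. Ccl22 and Ccl17, both of the opposing sum, had log2 fold changes of 0.61 and 1.28, given without a test, and each was higher in hCD2+ in 11 of 12 mice.

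**Figure D4:**
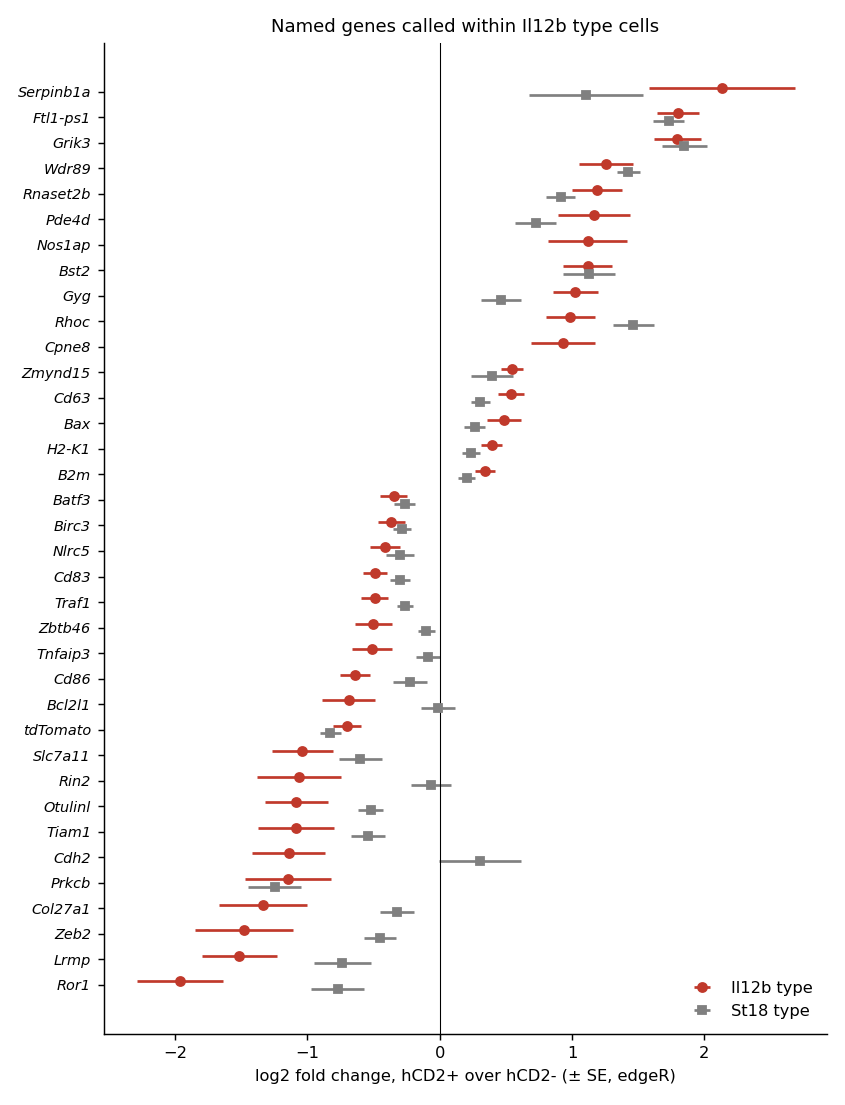
log2 fold change of hCD2+ over hCD2- (x axis, ± SE from edgeR) of the named genes called in Il12b type cells (red), with St18 type cells of the same libraries in grey where the gene was tested there. Cpne8, Zmynd15 and Col27a1 were read by the rule and are drawn as a description. Grik3, Wdr89 and Bst2 have like values in both types, and Cdh2 has -1.14 in Il12b type and 0.30 in St18 type cells.

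The fraction effect was then compared between the types by an interaction term. Of 7231 genes tested 5 (0.0691%) were called, 1 with a higher (0.0138%) and 4 with a lower effect (0.0553%) in Il12b type than in St18 type cells, and 596 had an unadjusted p under 0.05. Csf2rb, the shared receptor chain for GM-CSF, IL-3 and IL-5, moved in opposite directions. In Il12b type cells it ran from 329 to 634 CPM with a median of 470 in hCD2+ cells, and from 252 to 493 CPM with a median of 333 in hCD2- cells. In St18 type cells it averaged 274 ± 50.02 CPM in hCD2+ and 358 ± 55.4 CPM in hCD2- cells. The effects differed by a log2 value of 0.77 ± 0.16 (edgeR adjusted p = 0.0167). With cells sampled to 5000 UMIs 2 of the 5 genes could be tested and neither was called. Mpeg1, the pore-forming perforin-2, ran from 115 to 224 CPM with a median of 158 in hCD2+ and from 48.0 to 335 CPM with a median of 94.3 in hCD2- Il12b type cells. In St18 type cells it averaged 71.4 ± 23.9 CPM in hCD2+ and 15.6 ± 6.82 CPM in hCD2- cells, so that the fraction effect was smaller in Il12b type cells (difference of log2 fold changes -1.71 ± 0.33, edgeR adjusted p = 0.0167). Dpf3, Cc2d2a and Tcirg1 were all under 25 CPM on average in Il12b type cells of either fraction.

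**Figure D5:**
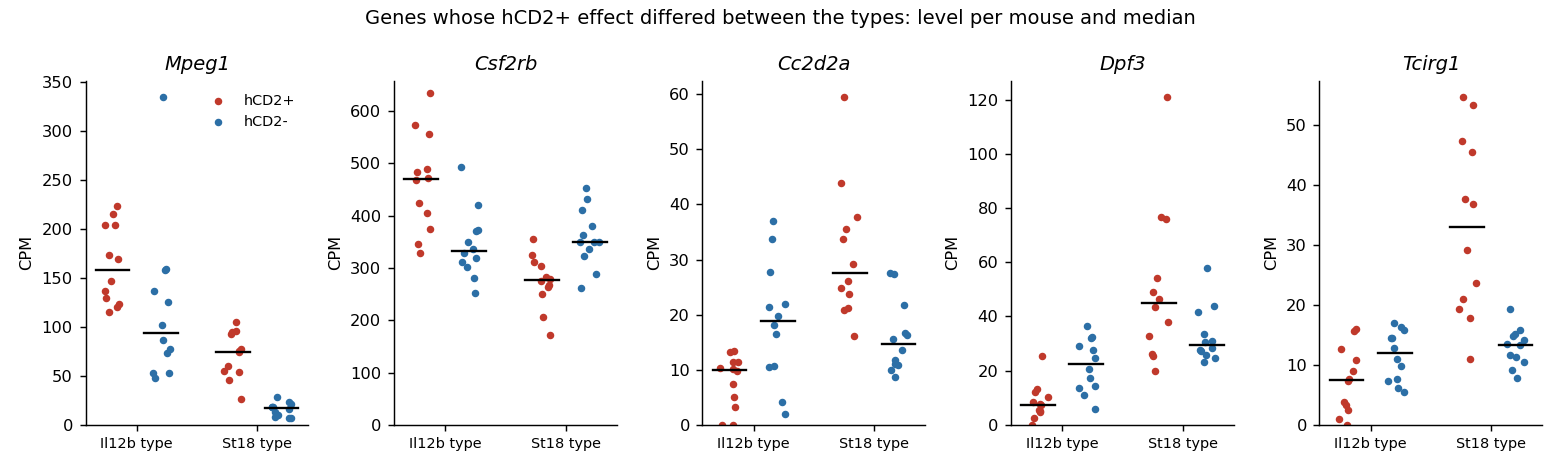
Level per mouse (points, CPM) and median (line) of the 5 genes whose fraction effect differed between the types, in Il12b type cells (left of each plot) and St18 type cells (right), hCD2+ in red and hCD2- in blue. Csf2rb is higher in hCD2+ in Il12b type cells and lower in hCD2+ in St18 type cells.

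Within the type, detection of Il12b and Itgb8 was compared cell by cell. Itgb8 had at least 1 UMI in 65.7% of hCD2+ and 46.5% of hCD2- Il12b type cells. With cells sampled to 5000 UMIs it was seen in 46.5% of hCD2+ and 32.8% of hCD2- Il12b type cells. In resident cDC1 at that depth the shares were 1.01% in hCD2+ and 0.719% in hCD2- cells. Among sampled hCD2+ Il12b type cells, Itgb8 was seen in 44.6% of those with Il12b and 46.5% of those without. Among sampled hCD2- Il12b type cells, it was seen in 31.3% of those with Il12b and 36.4% of those without. Spearman's rho across the cells of a library, a description over 3676 genes ordered by the smaller value of both libraries, with no p, was largest with Il12b for Ccl22 (0.44 in hCD2+, 0.33 in hCD2-), a gene of the opposing sum, Mir155hg (0.33 in hCD2+, 0.47 in hCD2-) and Srgn (0.34 in hCD2+, 0.40 in hCD2-). Il15 had the most negative value by this order (-0.28 in hCD2+, -0.28 in hCD2-). Il12b and Ccl22 were both read by the rule, so the choice of cells bears on their rho. Itgb8 had its largest values with Aff3 (0.31 in hCD2+, 0.45 in hCD2-) and Rbpj (0.25 in hCD2+, 0.31 in hCD2-), the DNA-binding factor of Notch signalling. Irf8 and Zeb2 went opposite ways (-0.22 in hCD2+, -0.36 in hCD2-). The cells of a library share depth and free RNA, and the sampling left depth equal. They were pooled over mice, so that rho and the shares above do not separate differences between mice from differences between cells.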

How the data were processed

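Single-cell RNA of 2 sorted fractions, 1 library each, was read from the matrices that the authors deposited, which hold UMI counts per gene and barcode with no normalization. They were made with Cell Ranger 8.0.1 on mm10, per the submitters' processing notes, and no other step is given in the sources used here. A deposited table gives each called cell's hashtag with a posterior probability, a fraction that the authors' multiplexing step wrote. Cells with 1 hashtag, at least 500 genes, at most 10% mitochondrial UMIs and at least 5000 UMIs were kept. Multiplets were left out by hashtag, which does not remove doublets of cells from the same mouse. Reads of hashtags stayed out of gene sums. Free RNA was read from droplets of 10 to 100 UMIs.

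Sums of counts per mouse, fraction and class (at least 5 cells per mouse) were fitted with edgeR 4.0.16 (TMM, filterByExpr, quasi-likelihood) in R 4.3.3, and with DESeq2 1.42.0 as an alternative. Sums held 244573 to 1266738 UMIs. Shares were compared by permutation (100000), and arithmetic used Python 3.11.15, numpy 2.4.6, scipy 1.17.1 and pandas 2.3.3. The fit was checked on simulated counts. Values are mean ± SD over mice, log2 fold changes ± SE. Members, gene lists and tests were chosen with earlier results of these data known. Named genes were the 10 called genes of largest fold in each direction (mean log2 CPM of at least 4, direction in at least 3 of 4 mice), up to 3 called per list, and list members; predicted, ribosomal and mitochondrial genes were left out. The design text says that the same hashtag marks the same animal in both fractions. As a check of the pairing, deviations from fraction means over 1906 genes correlated at -0.0282 to 0.302 between same-numbered samples (mean 0.145, 7 of 12 over 0.1) and at -0.0129 on average between others. Clec7a, Mx1 and Mx2 were not analysed here.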

Additional observations from a re-analysis of the deposited data

Results flagged for a closer look

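The hCD2+ effect differed between Il12b type and St18 type cells for 5 genes by the interaction term of the edgeR fit, each at an adjusted p of 0.0167. For Mpeg1 the log2 difference was -1.71 ± 0.33. For Csf2rb it was 0.77 ± 0.16, with opposite directions in the 2 types. Cc2d2a had a log2 difference of -2.03 ± 0.41, with 7.97 CPM in hCD2+ and 18.6 CPM in hCD2- Il12b type cells, against 31.0 CPM in hCD2+ and 15.9 CPM in hCD2- St18 type cells. Dpf3 had -1.98 ± 0.41, with 8.52 CPM in hCD2+ and 22.1 CPM in hCD2- Il12b type cells, against 50.8 CPM in hCD2+ and 33.0 CPM in hCD2- St18 type cells. Tcirg1 had -2.08 ± 0.43, with 7.46 CPM in hCD2+ and 11.5 CPM in hCD2- Il12b type cells, against 33.1 CPM in hCD2+ and 13.03 CPM in hCD2- St18 type cells. With cells sampled to 5000 UMIs 2 of these genes could be tested and neither was called.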

How the results depend on the processing

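Within Il12b type cells the count of 300 called genes (156 higher, 144 lower in hCD2+) became 84 with cells sampled to 5000 UMIs (44 higher, 40 lower, of 1393 tested) and 163 with only cells whose sums differed by at least 3 UMIs (74 higher, 89 lower). With at least 10 cells per mouse 102 genes were higher. It was 298 with DESeq2's size factors, 379 with DESeq2's Wald test and 267 with no low-count filter, of which 185 were among the 300. With the mouse as replicate block 296 genes were called, 255 of them among the 300. The 36 named called genes include Cpne8, Zmynd15 and Col27a1, which the rule read and which are only described. Of the 36, 5 were lost with at least 10 cells per mouse, 5 under the block, 7 without the filter and 10 with the margin of 3 UMIs, among them Col27a1. After sampling 7 of 17 tested were lost, and none changed sign in any of these settings. For the difference between types, 5 genes became 11 with the Wald test (2 higher, 9 lower), 7 under the block (2 higher) and 0 after sampling (0 higher and 0 lower in edgeR, with 196 at an unadjusted p under 0.05). The share of all filtered cells differed by -1.29 percentage points after sampling (adjusted p = 0.0229) and -1.03 before. The share of gated cells differed by 7.46 to 12.0 points in the alternatives, at adjusted p up to 0.0229. The cause of these changes was not tested. Pooled counts per mouse came from as few as 8 cells, which limits genes of low level.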

Other observations

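Siglech, a plasmacytoid DC gene, was found in Il12b type cells mainly in 1 hCD2+ mouse, whose sum of plasmacytoid DC markers was 897 CPM against a median of 156 CPM over hCD2+ and 110 CPM over hCD2- mice. Oasl1, an interferon-induced gene, averaged 64.1 CPM in Il12b type and 10.3 CPM in St18 type cells, whereas Isg15 averaged 164 CPM in Il12b type and 378 CPM in St18 type cells. Abcg1, a cholesterol exporter, averaged 274 CPM in Il12b type and 119 CPM in St18 type cells, higher in 24 of 24 pairs. Flt3, the growth factor receptor of DCs, averaged 594 CPM in Il12b type and 433 CPM in St18 type cells, higher in 23 of 24 pairs.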
